A study of Mus musculus with 12 samples.

Results

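The 10 genes described here encode enzymes of glycolysis: Hk2, Gpi1, Pfkl, Aldoa, Tpi1, Gapdh, Pgk1, Pgam1, Pkm and Ldha. They were taken by symbol from a list and not by their measured values, though earlier results of these data were then known. Each symbol was matched through a GRCm38 annotation to 1 of the 30994 gene rows of the deposited tables. RNA was counted in SIM-A9 cells, a microglial cell line of the mouse strain C57BL/6, in 2 tables: total reads, and nascent reads, which carry the base changes that mark RNA made during a pulse of 4-thiouridine. Every culture first received 10 µM polymyxin B, which binds bacterial endotoxin, for 1 h. Cells then received DMSO, the solvent, or 10 µM C13, named in the series title as an inhibitor of the kinase MOK, for 1 h. TDP-43 aggregates or sham aggregates followed at 5 µg/mL (TDP-43 binds RNA and clumps in motor neuron disease) for 2.5 h, and 100 µM 4-thiouridine was then present for 90 min, so that aggregates were there for 4 h in all. The 4 groups of 3 libraries were therefore sham with DMSO, TDP-43 with DMSO, sham with C13 and TDP-43 with C13, and below their libraries are given in the order of the replicate numbers. The labels call the libraries biological replicates without naming separate cultures, so p-values measure only the spread between these libraries, which may be technical.

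Glycolysis splits glucose to pyruvate in the cytosol and yields ATP without oxygen. Hexokinase traps glucose in the cell, phosphofructokinase commits it to the pathway, the enzymes from aldolase to pyruvate kinase carry out the middle and the last steps, and lactate dehydrogenase turns pyruvate to lactate and restores NAD+. Macrophages and microglia are known to raise glycolysis when activated by inflammatory signals, and Hk2, the inducible hexokinase, is a known target of the hypoxia-inducible factor HIF-1, while the enzymes of the middle steps are abundant in most cells.

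The sequences before the start of Hk2, Ldha and Pgk1 are shown because these genes stand for the variable first enzyme and for 2 abundant enzymes that are also known HIF-1 targets. Each run holds the 250 bases before a RefSeq start on GRCm38.p6, 5′ to 3′ on the strand of the gene, and capitals mark ACGTG, a core form of the hypoxia response element, or its complement CACGT; where both overlap they spell CACGTG, the E-box.
Hk2, chr6:82774455-82774704, minus strand: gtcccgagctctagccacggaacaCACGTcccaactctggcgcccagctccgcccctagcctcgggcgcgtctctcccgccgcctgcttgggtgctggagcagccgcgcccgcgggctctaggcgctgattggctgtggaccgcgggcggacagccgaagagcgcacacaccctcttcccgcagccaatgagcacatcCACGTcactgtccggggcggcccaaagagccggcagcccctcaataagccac
Ldha, chr7:46845554-46845803, plus strand: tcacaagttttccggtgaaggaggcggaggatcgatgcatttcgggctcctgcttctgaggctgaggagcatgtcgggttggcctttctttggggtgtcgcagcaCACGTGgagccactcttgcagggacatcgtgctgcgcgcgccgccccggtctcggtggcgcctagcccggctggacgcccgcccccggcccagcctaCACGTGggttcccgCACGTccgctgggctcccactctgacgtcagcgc
Pgk1, chrX:106186850-106187099, plus strand: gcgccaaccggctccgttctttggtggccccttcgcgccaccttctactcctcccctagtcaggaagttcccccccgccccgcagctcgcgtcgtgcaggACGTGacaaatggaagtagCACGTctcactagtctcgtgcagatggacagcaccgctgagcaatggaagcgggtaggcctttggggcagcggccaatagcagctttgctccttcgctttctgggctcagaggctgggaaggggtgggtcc
Hk2 had the letters 226 and 52 bases before the start, Pgk1 had them 150 and 131 bases before it, and Ldha had 3 sites, of which 2 were CACGTG. RefSeq gave windows for all 10 enzymes, and in 6 of them (Hk2, Aldoa, Pgk1, Pgam1, Pkm and Ldha) at least 1 window held the letters on either strand. The same search found them in 18.5% of 27025 genes with any window. These are matches of letters and not measured binding sites.

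Total reads ran from 17436397 to 41779882 a library and nascent reads from 552042 to 2722812, a nascent share of 1.88% to 7.11%. All 13 markers of microglia and macrophages had reads, with a summed level of 1397 to 2490.1 counts per 1000000 reads (CPM, after scaling by edgeR's TMM factors). Snap25, Gfap, Aldh1l1, Mog, Mag, Col1a2, Col3a1, Dcn, Cd3e, Cdh5 and Cldn5, which define neurons, glia, fibroblasts, T cells and endothelium, had 0 reads. Other markers of these types had some: 4 of 5 of neurons, 2 of 4 of astrocytes, 2 of 3 of T cells, 1 of 4 of fibroblasts and 1 of 3 of endothelium, with summed levels of at most 4.17, 1.76, 1.50, 0.141 and 1.57 CPM. Of the 4 oligodendrocyte markers 2 had reads, 4.45 to 46.4 CPM in sum, nearly all Mbp. The part of such cells in the results was not tested. Tmem119 and P2ry12, markers of microglia in the brain, reached at most 1.45 and 12.6 CPM. In bulk RNA, fewer cells of a type and less RNA per cell cannot be told apart. Since each read marks the 3′ end of an RNA, levels are per RNA molecule and not per length. All counts of Aldoa and of Gapdh were multiples of 3, and all nascent counts of Ldha were multiples of 4; no source used here says why. A common factor of 2 or more was found for 1917 of 9932 well-covered genes (mean above 50 reads), so that levels of different genes, and intervals from counting error, depend on them.

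Total RNA of the enzymes spanned a wide range of levels, and among the 10 Hk2 stood out by its spread and not by its level. Ldha, which makes lactate, had the highest median over the 12 libraries at 2640.4 CPM, followed by Aldoa at 1416, Gapdh at 1339.8, Pgam1 at 1100.4, Tpi1 at 989 and Pkm at 965 CPM. Pgk1 had 926, Gpi1 184, Hk2 53.3 and Pfkl 20.2 CPM. Within libraries Ldha exceeded Aldoa in 12 of 12, Pgk1 exceeded Gpi1 in 12 of 12 and Hk2 exceeded Pfkl in 10 of 12, whereas Tpi1 exceeded Pkm in 6 of 12 and Aldoa exceeded Gapdh in 8 of 12, so those neighbours were not separated. If the counts of Aldoa and Gapdh are divided by 3, the factor that all their counts share, their medians become 472 and 447 CPM, below that of Pgk1. The total counts of Ldha share no such factor, though 9 of 12 were multiples of 4.

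Hk2 (ENSMUSG00000000628, chromosome 6, 82725025 to 82774454, minus strand) encodes the hexokinase that is induced by growth and inflammatory signals. Its total level was 32.7, 31.8 and 63.7 CPM in sham with DMSO and 61.4, 80.2 and 17.9 CPM in TDP-43 with DMSO. It was 45.5, 7.66 and 109 CPM in sham with C13 and 19.3, 61.1 and 66.7 CPM in TDP-43 with C13. The lowest and the highest of the 12 values fell in the same group, sham with C13, where they differed 14.3-fold, and every group overlapped every other. Without that lowest library, replicate 2, the highest value of all was still 6.12 times the lowest. The mean was 42.7 ± 18.1 CPM in sham with DMSO, 53.1 ± 32.0 CPM in TDP-43 with DMSO, 54.2 ± 51.4 CPM in sham with C13 and 49.0 ± 25.9 CPM in TDP-43 with C13 (SD, n = 3 each).

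The other 9 enzymes varied by 1.39-fold (Tpi1) to 2.05-fold (Aldoa) between their lowest and highest library. Pfkl, the liver form of phosphofructokinase, had the lowest level of the 10. The other forms of this enzyme, Pfkp and Pfkm, had higher medians of 191.7 and 66.4 CPM. Pfkl had 21.5, 20.6 and 20.3 CPM in sham with DMSO, 15.6, 23.3 and 16.9 CPM in TDP-43 with DMSO, 14.8, 20.5 and 19.3 CPM in sham with C13 and 21.8, 20.0 and 19.0 CPM in TDP-43 with C13. These 12 values of Pfkl lay within 14.8 and 23.3 CPM at a median below that of Hk2.

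**Figure D1:**
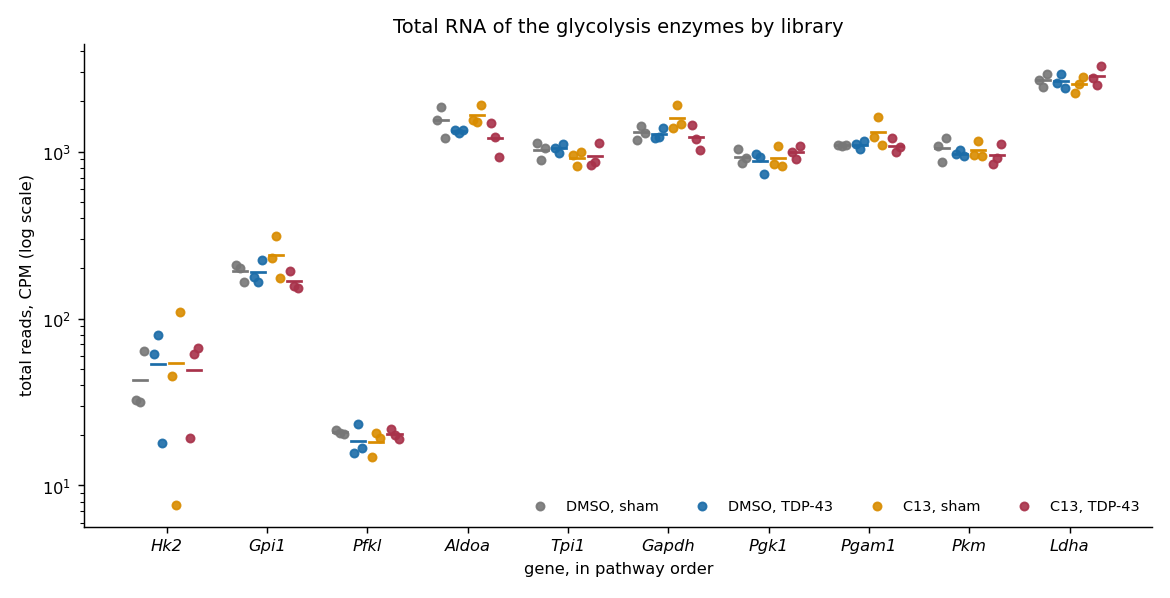
Total reads of each enzyme in CPM, on a log scale, with 1 point for each of the 3 libraries of a group and a bar at the group mean. The points of Hk2 run from 7.66 to 109 CPM, both in sham with C13, while those of each other enzyme stay within 2.05-fold.

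The spread between libraries of a group was measured for every gene as the biological coefficient of variation (BCV), the relative variation beyond counting error that edgeR estimates and pulls towards a trend over the mean level. Hk2 had a BCV of 0.586 in total RNA, where the trend at its level was 0.286. This BCV was higher than that of 8291 of 11827 tested genes (70.1%), so in itself it was not rare. It lay 2.05 times above its trend, and 41 of 11827 tested genes lay farther above theirs. Each of the other 9 enzymes lay below its trend, at 0.734 (Pfkl) to 0.898 (Gpi1) of it, and their BCV ran from 0.172 (Ldha) to 0.271 (Pfkl). Of 11827 genes, 6877 had a higher ratio to the trend than Gpi1 and 11488 a higher one than Pfkl. Many other genes thus lay below their trend too. Leaving out sham with C13 replicate 2 gave Hk2 a BCV of 0.447 against a trend of 0.263, the lowest value among the 12 sets without 1 library. In that set 7294 of 12383 genes had a lower BCV. In nascent RNA the BCV of Hk2 was 0.990 with a trend of 0.877, and 1247 of 7078 genes lay farther above their trend, so there Hk2 was not set apart. The other 9 enzymes lay below the trend in nascent RNA too, at 0.781 (Pgam1) to 0.907 (Pfkl) of it. There 4534 of 7078 genes had a higher ratio to the trend than Pfkl, so this was again shared with many genes.

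**Figure D2:**
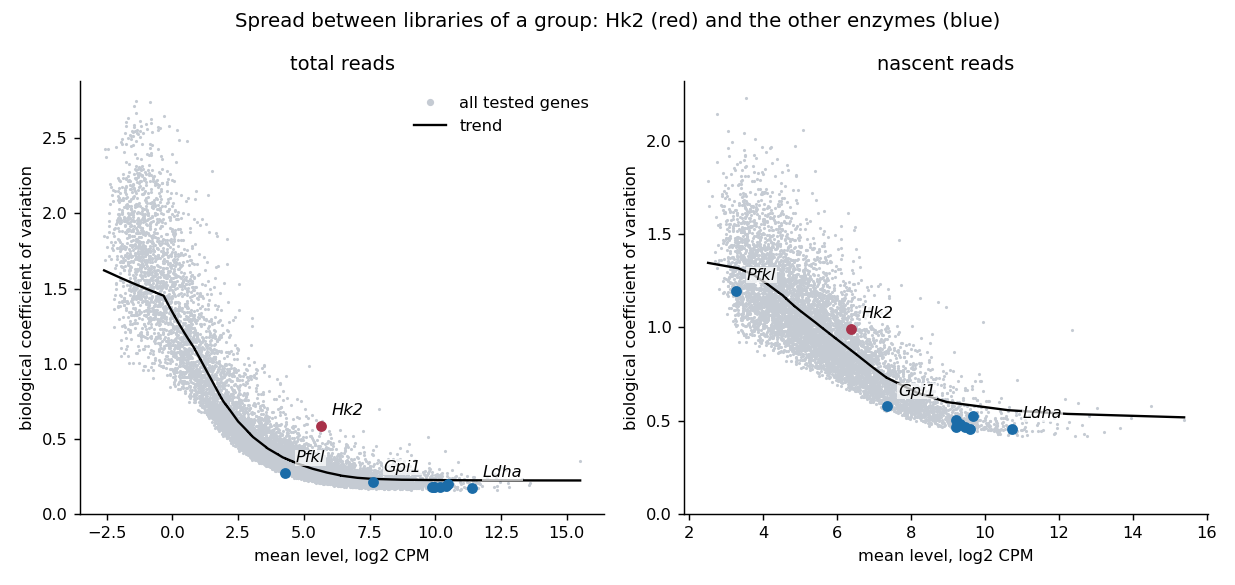
BCV of every tested gene against its mean level in log2 CPM, for total reads (left) and nascent reads (right), with the edgeR trend as a black line, Hk2 in red and the 9 other enzymes in blue. Hk2 lies 2.05 times above the trend in total reads and the 9 others lie below it in both panels, as do many other genes.

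Genes whose total RNA varied most like that of Hk2 were picked as a description and not as a test. How many genes varied in this way was not counted. The 5 genes with the most similar log2 CPM over the 12 libraries, among 9932 genes with a mean of at least 50 reads, were Sav1 (Pearson r = 0.95), Hltf (0.94), Mrps28 (0.93), Trappc2 (0.92) and Erlin1 (0.92). Without sham with C13 replicate 2 and TDP-43 with DMSO replicate 3, in which Hk2 was lowest, r ran from 0.83 to 0.89. Erlin1, a protein of the endoplasmic reticulum, had 33.8, 10.9 and 103.0 CPM in sham with C13, the group where Hk2 had 45.5, 7.66 and 109 CPM. Trappc2, a subunit of a vesicle tethering complex, had 43.1, 15.6 and 70.7 CPM there. These genes were the highest of many, and the points share library, depth and RNA, so the correlations describe these libraries.

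No enzyme was called in total RNA in any of the 7 comparisons at an adjusted p under 0.05 (edgeR quasi-likelihood test, Benjamini-Hochberg over 11827 genes), and the share of all genes called was 0.0% in each. The comparisons were C13 against DMSO with sham and with TDP-43, TDP-43 against sham with DMSO and with C13, the average of either pair, and the interaction. They share libraries, so they are not separate evidence. DESeq2 called 8 to 108 genes in these comparisons, and none of the 10 enzymes. At an unadjusted edgeR p under 0.05, Aldoa and Gpi1 were the only enzymes of the 10. Total log2 fold changes of Hk2 were 0.31 (SE 0.71) for TDP-43 against sham with DMSO, -0.15 (SE 0.71) for the same with C13, 0.35 (SE 0.71) for C13 against DMSO with sham and -0.12 (SE 0.71) with TDP-43. Each is smaller than its error, and the error is several times that of the other enzymes, so small changes of Hk2 were not detectable. Each changed sign when 1 library was left out: to -0.11 without TDP-43 with DMSO replicate 2, to 0.90 and -0.69 without sham with C13 replicate 3, and to 0.32 without TDP-43 with DMSO replicate 2. For the other 9 enzymes the 36 pairwise values lay between -0.52 and 0.32, with SE of 0.17 to 0.28.

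Aldoa, which splits fructose 1,6-bisphosphate, and Gpi1, which turns glucose 6-phosphate to fructose 6-phosphate, came closest to the threshold, both in cells given C13. Aldoa had 1550.1, 1509 and 1913 CPM in sham with C13 and 1478, 1229.7 and 934 CPM in TDP-43 with C13, and the groups did not overlap. It was the only enzyme of the 10 whose total levels were lower without overlap in that comparison, as were those of 6.07% of all genes. The log2 fold change was -0.45 (SE 0.21; edgeR unadjusted p = 0.0454, adjusted p = 0.56), and -0.28 without TDP-43 with C13 replicate 3. In cells given DMSO, Aldoa had 1555, 1857 and 1208 CPM with sham and 1343, 1287 and 1355 CPM with TDP-43, which overlap, and the value averaged over both drugs was -0.33 (SE 0.15; edgeR unadjusted p = 0.0378, adjusted p = 0.948).

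Gpi1 had 231, 311 and 175 CPM in sham with C13 and 192, 157 and 153 CPM in TDP-43 with C13, with overlap through replicate 3 of sham. Its log2 fold change was -0.52 (SE 0.22; edgeR unadjusted p = 0.0357, adjusted p = 0.559), and -0.27 without sham with C13 replicate 2. So 2 of 10 enzymes had an unadjusted p under 0.05 there, where 8.84% of all genes did, and 1 of 10 in the average over both drugs, where 4.73% did. Under DMSO, Gpi1 had 209.6, 200.3 and 166 CPM with sham and 176, 166 and 225 CPM with TDP-43, and its log2 fold change was -0.02 (SE 0.22).

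Among the enzymes from Tpi1 to Pgam1, none passed the test in total RNA. Gapdh, which reduces NAD+ at the oxidation step, had 1183, 1435 and 1296 CPM in sham with DMSO, 1209, 1223 and 1387 CPM in TDP-43 with DMSO, 1384, 1897 and 1468 CPM in sham with C13 and 1454, 1193 and 1019.7 CPM in TDP-43 with C13. For TDP-43 against sham with C13, Gapdh differed by -0.37 in log2 CPM (edgeR adjusted p = 0.595; SE 0.19), and the groups overlap. Pgam1, a phosphoglycerate mutase, had 1103, 1085 and 1097 CPM, 1112, 1036 and 1155 CPM, 1223, 1619 and 1095 CPM and 1206, 994 and 1063 CPM in the same groups. The highest library of Gapdh, Pgam1 and Gpi1 alike was sham with C13 replicate 2, the library in which Hk2 was lowest. Tpi1, which interconverts the triose phosphates, ranged from 817 to 1135 CPM, and Pgk1, which makes ATP from bisphosphoglycerate, from 734 to 1083 CPM over all libraries.

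At the end of the pathway, Pkm, the pyruvate kinase of macrophages and most adult tissues, ranged from 848 to 1204 CPM. Ldha had 2707, 2458 and 2924 CPM in sham with DMSO, 2574, 2921 and 2409 CPM in TDP-43 with DMSO, 2249, 2555 and 2785 CPM in sham with C13 and 2774, 2517 and 3266 CPM in TDP-43 with C13. All 4 groups of Ldha overlapped, and its 4 pairwise log2 fold changes in total RNA lay between -0.09 and 0.17. Pkm overlaps the gene model Gm49759 on the same strand, so a share of its reads may belong to that neighbour. Hk2, Gpi1, Aldoa, Tpi1 and Gapdh each overlap a gene on the opposite strand. The same may hold for them if reads were counted without regard to strand, which the sources used here do not say.

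In nascent RNA no enzyme was called in any of the 7 comparisons by the same test over 7078 genes. The share of all genes called was 0.0141% (1 gene) for TDP-43 against sham averaged over both drugs and 0.0% in each of the other 6 comparisons. Nascent values rest on few reads: Hk2 had 0 to 177 and Pfkl 0 to 30 nascent reads in a library. Ldha had 372 to 4508, all multiples of 4, so its counts may overstate the reads behind them.

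Hk2 had nascent reads in 11 of 12 libraries, with wide gaps inside groups. Its nascent level was 120.4, 54.1 and 53.4 CPM in sham with DMSO, 10.0, 43.2 and 13.5 CPM in TDP-43 with DMSO, 65.9, 0 and 335 CPM in sham with C13 and 35.4, 143 and 96.7 CPM in TDP-43 with C13. Under DMSO all 3 TDP-43 libraries lay below all 3 sham libraries, and Hk2 was 1 of 10 enzymes to do so, against 6.56% of all genes. The log2 fold change was -1.74 (SE 1.27; edgeR adjusted p = 1.00), or -2.69 without TDP-43 with DMSO replicate 2, and for C13 against DMSO with TDP-43 it was 2.01 (SE 1.28; edgeR adjusted p = 0.998), where the groups overlap. With sham, C13 against DMSO gave 0.81 (SE 1.23), and TDP-43 against sham with C13 gave -0.54 (SE 1.23). Both signs turn without sham with C13 replicate 3, the library of 335 CPM: -1.25 and 1.51.

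Nascent Ldha lay higher with TDP-43 than with sham under both drugs. It had 1237, 1492 and 1289 CPM in sham with DMSO and 1539, 2949 and 3053 CPM in TDP-43 with DMSO. It had 1386, 658 and 1254 CPM in sham with C13 and 1515, 1438 and 2334 CPM in TDP-43 with C13. The groups did not overlap in either pair, and Ldha was the 1 enzyme of 10 with such a gap upwards, against 3.74% of all genes with DMSO and 7.87% with C13. The log2 fold change was 0.91 (SE 0.42; edgeR unadjusted p = 0.0429, adjusted p = 1.00) with DMSO, 0.68 (SE 0.42; edgeR adjusted p = 0.701) with C13 and 0.79 (SE 0.29; edgeR unadjusted p = 0.0147, adjusted p = 0.842) over both. An unadjusted p under 0.05 was reached by Ldha as 1 of 10 enzymes in the comparison with DMSO, where 3.19% of all genes did so, and in the average, where 5.59% did. In total RNA the averaged log2 fold change of Ldha was 0.07 (SE 0.12).

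Nascent Gpi1 differed between the drugs in opposite directions with and without aggregates. It had 144, 95.02 and 148 CPM in sham with DMSO and 179, 265 and 266 CPM in sham with C13, without overlap, as for 5.13% of all genes in that direction. With TDP-43 it had 142, 133 and 306 CPM under DMSO and 61.1, 113 and 89.4 CPM under C13, again without overlap, as for 4.34% of all genes. Within C13, TDP-43 libraries lay below sham libraries without overlap, as for 5.23% of all genes, with a log2 fold change of -1.43 (SE 0.64; edgeR unadjusted p = 0.0376, adjusted p = 0.57). The interaction was -2.02 (SE 0.89; edgeR unadjusted p = 0.0364, adjusted p = 0.63). Gpi1 was the 1 enzyme of 10 with an unadjusted p under 0.05 in each, against 8.45% and 7.59% of all genes.

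Of the remaining enzymes, nascent Pgk1 was 510.2, 502 and 524 CPM in TDP-43 with DMSO and 719, 679 and 804 CPM in TDP-43 with C13, the 1 enzyme with a gap upwards there, against 6.02% of all genes. Its log2 fold change was 0.52 (SE 0.45), close to its error. Pfkl had 9, 22 and 14 nascent reads in sham with DMSO and 2, 0 and 0 in sham with C13, the 1 enzyme with a gap downwards there, against 9.14% of all genes. With so few reads no fold change between groups is given for it. Aldoa, Tpi1, Gapdh, Pgam1 and Pkm overlapped between the groups of all 4 pairs in nascent RNA, with averaged log2 fold changes of -0.42 to 0.11 for C13 and of -0.32 to -0.01 for TDP-43, and SE of 0.30 to 0.37.

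**Figure D3:**
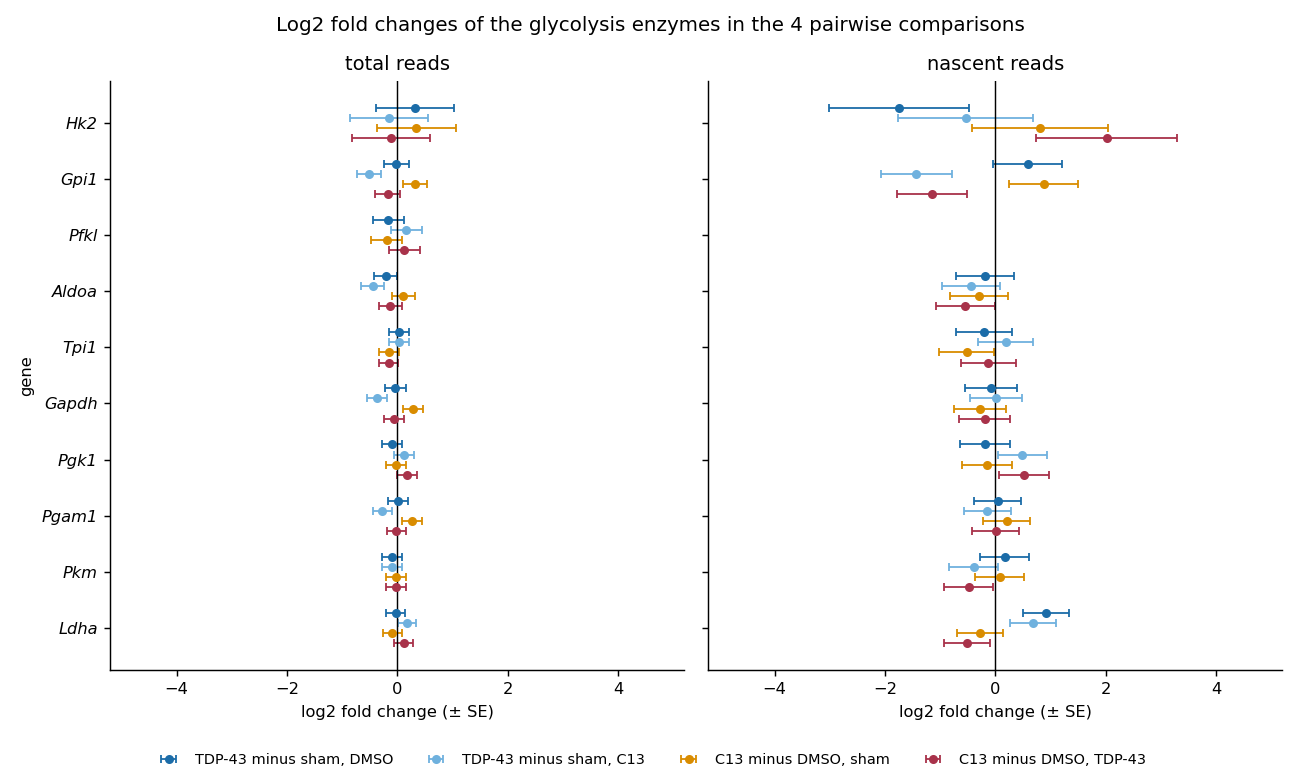
Log2 fold changes ± SE of each enzyme in total reads (left) and nascent reads (right) for the 4 pairwise comparisons, from fits of 3 libraries a group; nascent Pfkl is left out for its few reads. In total reads the 36 values of the enzymes other than Hk2 lie between -0.52 and 0.32, and in nascent reads the bars of Hk2 are the widest of those shown.

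To relate new to standing RNA, the nascent reads of each enzyme were taken as a percentage of its total reads in a library. For Hk2 the nascent share was 14.2% (95% Clopper-Pearson interval 12.1% to 16.4%), 13.6% (11.7% to 15.7%) and 2.36% (1.79% to 3.04%) in sham with DMSO. It was 0.498% (0.183% to 1.08%), 1.94% (1.50% to 2.46%) and 1.25% (0.505% to 2.56%) in TDP-43 with DMSO. The first 2 sham libraries thus lay far above the third, and all TDP-43 libraries under DMSO lay below all 3. The intervals cover counting error only, and PCR copies were not told apart.

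In cells given C13, the nascent share of Hk2 was 4.95% (95% Clopper-Pearson interval 3.54% to 6.70%) and 3.55% (3.04% to 4.12%) in replicates 1 and 3 of sham. Replicate 2 had 0 of 152 reads, for which the same interval reaches 2.40% and a limit of 3 reads is 1.97%. With TDP-43 and C13 the share was 6.04% (4.08% to 8.56%), 8.10% (6.99% to 9.32%) and 3.48% (2.77% to 4.31%). These 3 values lay above all 3 of TDP-43 with DMSO, while sham with C13 overlapped sham with DMSO.

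The mean nascent share of Hk2 was 10.0% ± 6.66 in sham with DMSO, 1.23% ± 0.720 in TDP-43 with DMSO, 2.83% ± 2.55 in sham with C13 and 5.87% ± 2.32 in TDP-43 with C13 (SD, n = 3 each). TDP-43 differed from sham by -8.81 percentage points with DMSO, and C13 differed from DMSO by 4.64 percentage points with TDP-43 (two-sided exact permutation p = 0.1 for both, the smallest that 3 against 3 allow; adjusted p = 0.2 over 4 pairs). The other pairs, C13 against DMSO with sham and TDP-43 against sham with C13, differed by -7.21 and 3.04 percentage points (two-sided exact permutation p = 0.3 for both, adjusted p = 0.3). Averaged over the other treatment, C13 differed from DMSO by -1.28 points and TDP-43 from sham by -2.89 points (two-sided exact permutation p = 0.605 and 0.325). In the count model that sets nascent against other reads, the corresponding log2 values of Hk2 were -2.19 (SE 1.20; edgeR adjusted p = 1.00) for TDP-43 against sham with DMSO, 2.21 (SE 1.18; edgeR adjusted p = 1.00) for C13 against DMSO with TDP-43 and 2.92 (SE 1.71; edgeR adjusted p = 0.946) for the interaction.

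Besides Hk2, only Gapdh among the 10 enzymes had lower nascent shares without overlap in TDP-43 than in sham with DMSO, 2 of 10 against 11.6% of all genes. Gapdh had 1.86%, 4.28% and 1.70% in sham with DMSO and 1.50%, 1.50% and 1.07% in TDP-43 with DMSO. With C13 and TDP-43 against DMSO and TDP-43, Hk2 was the 1 of 10 with higher shares without overlap, against 5.72% of all genes. With sham, Gapdh and Pfkl had lower shares without overlap in C13 than in DMSO, 2 of 10 against 16.9% of all genes. The nascent share of all reads was 3.40%, 7.11% and 2.74% in sham with DMSO and 2.81%, 3.35% and 2.13% in TDP-43 with DMSO and 3.20%, 2.85% and 1.88% in sham with C13. It was 2.99%, 3.30% and 2.44% in TDP-43 with C13, and its part in these values was not tested.

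Set beside its own library, Hk2 had a nascent share above that of all reads in 7 of 12 libraries. Gpi1, Pfkl, Pgk1 and Ldha did so in 1 of 12 each, and Aldoa, Tpi1, Gapdh, Pgam1 and Pkm in 0 of 12. Hk2 exceeded the median of the 9 other enzymes in 9 of 12 libraries and all 9 of them in 7, and it lay below all 9 in 1, TDP-43 with DMSO replicate 1. In sham with DMSO replicate 1, for example, Hk2 had 14.2% where the other 9 ran from 1.32% to 3.14%. In TDP-43 with DMSO, Hk2 was below the library share in all 3 libraries.

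**Figure D4:**
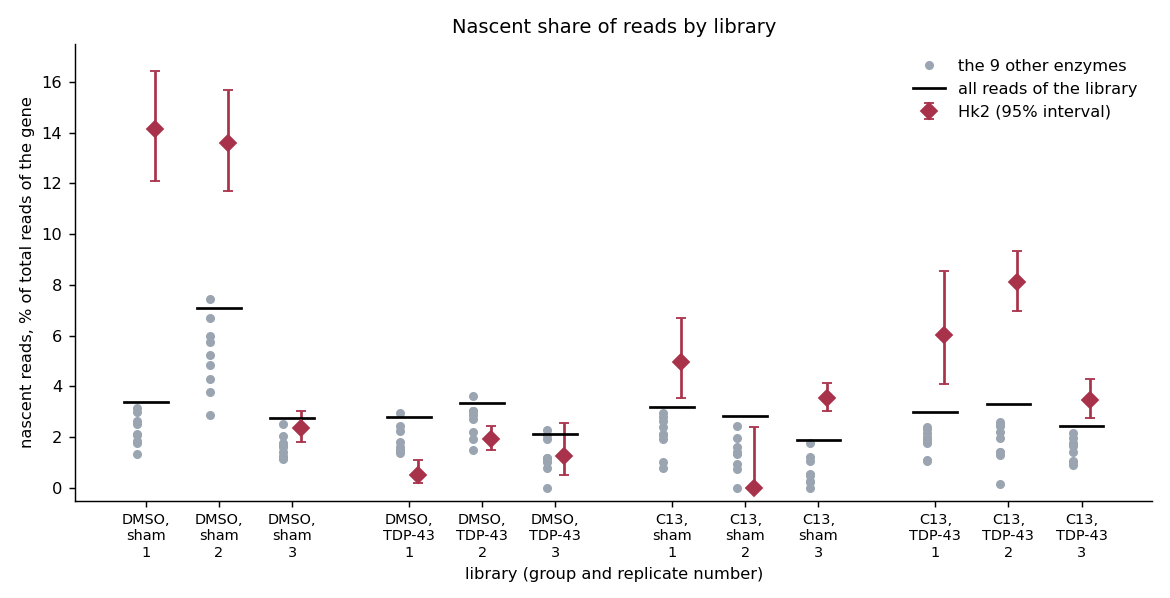
Nascent reads as a percentage of total reads in each of the 12 libraries, for Hk2 (red, with 95% Clopper-Pearson intervals), the 9 other enzymes (grey) and all reads of the library (black bar). Hk2 lies above the bar in 7 libraries, and the other enzymes lie mostly below it. The bar is the share of all reads and not that of the typical gene.

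Over all 4 groups, nascent reads were then set against the other reads of each gene in 1 fit, as a log2 ratio relative to the library. Of the 10 enzymes, 8 were called lower (edgeR adjusted p under 0.05), against 19.2% of 7078 genes. The ratio was -2.01 (SE 0.67) for Pfkl, which rests on 0 to 30 nascent reads a library, -1.01 (SE 0.14) for Gapdh, -0.80 (SE 0.18) for Aldoa, -0.68 (SE 0.17) for Tpi1 and -0.66 (SE 0.14) for Ldha. It was -0.58 (SE 0.15) for Pgk1, -0.48 (SE 0.15) for Pgam1 and -0.44 (SE 0.15) for Pkm, with edgeR adjusted p from 7.18e-05 (Gapdh) to 0.0427 (Pkm). Gpi1 had -0.28 (SE 0.22; edgeR adjusted p = 0.33) and Hk2 0.32 (SE 0.43; edgeR adjusted p = 0.583), neither of which passed.

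The zero of this ratio needs care, because the median over all 7078 genes was -0.57. Against that median, 5 enzymes of the middle and last steps lay near the middle: 46.6% of genes had a lower ratio than Ldha, 46.1% than Tpi1, 49.8% than Pgk1, 53.6% than Pgam1 and 55.4% than Pkm. Gapdh and Aldoa ranked somewhat lower, with 33.8% and 41.6% of genes below them, and Pfkl lowest with 9.40%. Hk2 ranked highest, with 78.8% of genes below it, followed by Gpi1 with 61.1%. The count of 8 depended on single libraries: without each in turn it was 5 to 7, where Pkm missed the threshold in 10 of 12 sets, Pfkl in 8 and Pgam1 in 6. The ratio of Pfkl was -3.82 without sham with C13 replicate 1, the 1 library of its group with nascent reads, and -1.75 without TDP-43 with DMSO replicate 3. That of Hk2 ran from 0.07 (without sham with C13 replicate 3) to 0.55 (without replicate 2), and that of Gpi1 was -0.17 without TDP-43 with C13 replicate 1. Within sham with DMSO alone it was 2 of 9 enzymes tested. Of all genes called, 67.7% were lower, against 36.8% within sham with DMSO and 84.8% without a filter on low counts. The ratio of Hk2 without TDP-43 with DMSO replicate 3 and sham with C13 replicate 3 was -0.015.

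**Figure D5:**
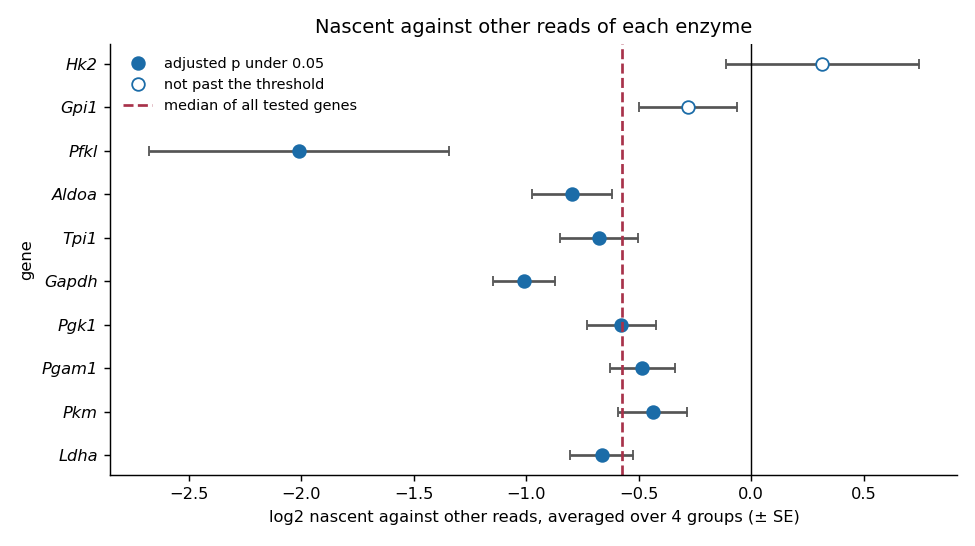
Log2 ratio of nascent to other reads of each enzyme, averaged over the 4 groups, with its SE; filled points passed an edgeR adjusted p under 0.05 and the dashed line is the median of all tested genes, -0.57. Hk2 lies at 0.32, to the right of the others, and Gapdh and Pfkl lie left of the median.

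In the differences of this ratio between groups no enzyme was called; the share of all genes called was 0.0141% for TDP-43 against sham averaged over both drugs and 0.0% in each of the other 6. Ldha had 0.73 (SE 0.28; edgeR unadjusted p = 0.0192, adjusted p = 1.00) in that average, the 1 enzyme of 10 with an unadjusted p under 0.05, against 4.03% of all genes. With DMSO its value was 0.90 (SE 0.40; edgeR unadjusted p = 0.037, adjusted p = 1.00), again as 1 of 10, against 2.66% of all genes.

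Other genes of the pathway were looked at through 4 lists. Of 21 other glycolysis isozymes 11 were tested in total RNA, of 24 genes of transport and control 20, of 18 hypoxia-inducible factor targets outside glycolysis 17, and of 7 genes of the pentose phosphate pathway 7. None was called in any of the 7 comparisons of total RNA by edgeR, where 0 of all genes were. Among the isozymes, 0 reached an unadjusted p under 0.05 in any comparison. The constitutive hexokinase Hk1 had 139.8 to 247 CPM over the 12 libraries, a 1.77-fold range where that of Hk2 was 14.3-fold. Hk3, with a median of 46.1 CPM nearer to that of Hk2, ranged 5.32-fold, and Adpgk (median 13.7 CPM) 9.25-fold. In the transport and control list, Txnip and Mlxip ranged 12.1-fold and 22.8-fold at medians of 6.68 and 6.73 CPM. Averaged over both arms, Hk1 had a C13 effect of 0.28 (SE 0.14; edgeR adjusted p = 0.999). Bpgm, a mutase on a side branch, had -0.58 (SE 0.34) in the same average. Eno1 had 0.65 (SE 0.36) for TDP-43 against sham with C13, but it has a near-identical copy, Eno1b, so its reads may be split between them, and the muscle enolase Eno3 had 0.33 (SE 0.23) for C13 against DMSO with TDP-43.

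Slc2a1, the glucose transporter GLUT1, had the smallest p of the transport and control list. It had 31.8, 44.3 and 53.8 CPM in sham with DMSO (lowest to highest) and 20.2, 21.3 and 27.9 CPM in sham with C13, without overlap, as for 5.72% of all genes in that direction, and a log2 value of -0.90 (edgeR adjusted p = 0.655; SE 0.26). With TDP-43 it had 37.8 to 44.6 CPM under DMSO and 31.6 to 42.0 CPM under C13, which overlap. Hif1a, the oxygen-regulated subunit of HIF-1, had 98.4 to 144 CPM with sham and 169.7 to 191 CPM with TDP-43 under DMSO, a gap upwards that 5.49% of all genes had, and a log2 value of 0.53 (edgeR adjusted p = 0.999; SE 0.19). Pfkfb3, which makes the activator of phosphofructokinase, had -0.88 (SE 0.39; edgeR adjusted p = 0.559) for TDP-43 against sham with C13. Myc, a transcription factor that drives glycolytic genes, had reads in 4 of 12 libraries and at most 1.41 CPM, so no fold is given.

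Of the hypoxia-inducible factor targets, Mxi1, a repressor of the Myc network, had 80.9 to 91.1 CPM with sham and 129 to 144 CPM with TDP-43 under DMSO, a gap of the same kind as that of Hif1a, and a log2 value of 0.65 (edgeR adjusted p = 0.999; SE 0.25). Ndrg1 had -0.38 (SE 0.18) for C13 over both arms, Egln3, an oxygen-sensing hydroxylase, 0.65 (SE 0.33) for C13 against DMSO with TDP-43, and the cytokine Mif -0.43 (SE 0.24) for TDP-43 against sham with C13. Of the pentose phosphate genes in that last comparison, Pgd, a dehydrogenase that makes NADPH, had 0.49 (SE 0.18; edgeR adjusted p = 0.525) and Pgls, the lactonase before it, -0.58 (SE 0.26; edgeR adjusted p = 0.56). Tkt, a transketolase, had -0.49 (SE 0.26) for TDP-43 against sham with DMSO, and Rpe -0.44 (SE 0.25) for C13 against DMSO with sham.

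Set as nascent against other reads over all groups, 6 of 9 tested isozymes were called lower, where 19.2% of all genes were and the median was -0.57: Aldoc (-1.29), Pfkp (-1.51), Eno1b (-1.12), Hk3 (-2.98), Hk1 (-1.04) and Eno1 (-1.61). Both other hexokinases tested, Hk1 and Hk3, thus had ratios below 0, where Hk2 had 0.32; the difference was not tested. Of 7 pentose phosphate genes 4 were called lower, against the same 19.2%: Pgls (-1.26), Rpe (-2.33), Rpia (-1.98) and Pgd (-0.53), of which Pgd lay above the median of all genes. Of 16 tested genes of transport and control 2 were called higher, against 9.18% of all genes: Slc16a3, the lactate exporter MCT4, at 1.06 (SE 0.19; edgeR adjusted p = 0.000766) and Mpc2, of the mitochondrial pyruvate carrier, at 2.23 (SE 0.50; edgeR adjusted p = 0.00472). Nascent Mpc2 varied widely, from 1.21 to 667 CPM over the 12 libraries, where its total level ran from 22.6 to 44.3 CPM. Of 13 hypoxia-inducible factor targets 4 were called lower, again against 19.2% of all genes, Mif (-0.79), Ndrg1 (-1.85), Bnip3 (-1.67) and Higd1a (-1.04), and 1 higher, the transcriptional repressor Bhlhe40 (1.67).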

How the data were processed

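RNA of SIM-A9 cells was labelled with 4-thiouridine, treated with iodoacetamide and made into QuantSeq 3′ libraries, per the labels' protocols. The authors deposited whole-number counts per gene in 2 tables, total and nascent. The submitters' processing notes name GRCm38. For alignment, counting and nascent calls, the tools and rules were not given in the sources used here. Of 30994 gene IDs 30922 matched the annotation, and 0 columns belonged to other samples. The enzymes, the other lists and the tests were chosen with earlier results of these data known. Counts were fitted in R 4.3.3 with edgeR 4.0.16 (TMM, filterByExpr, quasi-likelihood test, Benjamini-Hochberg adjusted p under 0.05), all 4 groups in 1 fit; 11827 genes were tested in total and 7078 in nascent counts, and all 10 enzymes passed both filters. Nascent and other (total minus nascent) counts were compared in a fit with library terms. Shares of reads were compared by exact permutation over libraries. Named genes were the enzymes, the genes with the smallest p of each list, all list genes called, and the 5 genes most like Hk2. Alternatives were DESeq2 1.42.0 and its size factors, no TMM, no filter, each library left out, 2 libraries that earlier results set apart left out together, a replicate block, fewer groups, total library sizes for nascent counts and, chosen after seeing the data, counts divided by their common factor. That factor was the one shared by the total and nascent counts of a gene, so the nascent counts of Ldha were not divided. Scripts were tested on simulated data. Intervals of shares cover counting error only.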

Additional observations from a re-analysis of the deposited data

Results flagged for a closer look

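Nascent Gpi1 drew attention because C13 and DMSO differed in opposite directions in the 2 arms. With sham, all 3 C13 libraries (179 to 266 CPM) lay above all 3 DMSO libraries (95.02 to 148 CPM), a log2 ratio of group means of 0.87. With TDP-43, all 3 C13 libraries (61.1 to 113 CPM) lay below all 3 DMSO libraries (133 to 306 CPM). The interaction was -2.02 (SE 0.89; edgeR unadjusted p = 0.0364, adjusted p = 0.63), and it ran from -2.22 to -1.52 without each library in turn. Over all tested genes 7.59% had an unadjusted p under 0.05 in that test, and the difference in Gpi1 did not pass the correction.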

How the results depend on the processing

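No enzyme was called in a comparison between groups under any alternative run, in total or nascent counts. Counts of all genes called are given in the order C13 averaged, C13 with TDP-43, C13 with sham, TDP-43 averaged, TDP-43 with C13, TDP-43 with DMSO and interaction. The DESeq2 test called 10, 11, 29, 9, 72, 7 and 48 genes in nascent counts and 16, 30, 41, 33, 98, 8 and 108 in total counts. Without the filter on low counts edgeR called 11, 10, 29, 18, 30, 6 and 38 in nascent counts, 18, 33, 59, 33, 124, 10 and 124 in total counts, and 4, 7, 11, 4, 11, 2 and 13 in nascent against other reads, with 4268 for nascent against other averaged over groups (main 2010). That average gave 402 in sham with DMSO alone. With a replicate block 0 nascent genes were called for TDP-43 averaged and 2 total genes for the interaction. Same-numbered libraries of different groups had correlations of -0.028 to 0.06 in nascent and -0.069 to 0.233 in total counts. Differently numbered ones had -0.052 to 0.048 and -0.293 to 0.278. In total counts 5 of 18 same-numbered pairs exceeded 0.1, against 2 of 36 differently numbered pairs. In nascent counts 0 of either kind did. Whether the numbers mark pairs or batches was not tested. Without TMM 0 genes were called for TDP-43 averaged in nascent against other reads. Without TDP-43 with DMSO replicate 3 and sham with C13 replicate 3, 1 total gene each was called for TDP-43 averaged and with C13; with only the groups compared 1 was called for TDP-43 with C13; with common factors divided out 2 were called for the interaction. The cause was not tested.

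Without each library in turn, nascent counts gave 0 to 1 genes for TDP-43 averaged, TDP-43 with C13 and the interaction, and nascent against other reads 0 to 1 in 5 comparisons and 1596 to 2108 for the average. Total counts gave 0 to 2 for C13 averaged and C13 with sham, 0 to 1 for TDP-43 averaged, 0 to 4 for TDP-43 with C13 and 0 to 3 for the interaction. The difference in Hk2 share ran from -3.20 to -0.253 points (C13) and -4.81 to -1.86 (TDP-43), that of the library share from -1.23 to -0.144 and -1.11 to -0.0218.

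Some values of Hk2 changed sign. Without the 2 libraries named above, nascent against other was -0.015, total C13 with sham -0.69, total TDP-43 with C13 0.89, nascent C13 with sham -1.22 and nascent TDP-43 with C13 1.51. Scaled by total library sizes, those nascent values were -0.76 and 0.45. Without each library in turn, Hk2 ran in nascent counts from -1.25 to 1.31 (C13 with sham) and -1.04 to 1.51 (TDP-43 with C13). In total counts it ran from -0.52 to 0.32 (C13 with TDP-43), -0.69 to 0.86 (C13 with sham), -0.64 to 0.90 (TDP-43 with C13) and -0.11 to 0.73 (TDP-43 with DMSO). The cause was not tested.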
